A study of Mus musculus with 4 samples.

Results

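Cells of library 3 were compared with cells of library 4 in 3 classes of mouse tracheal epithelium: ciliated, secretory and basal cells. The cells were chosen by measured values, namely the share of a cell's unique molecular identifiers (UMIs, 1 per captured RNA molecule) that came from a few marker genes. A ciliated cell had at least 0.3% of its UMIs from Ccdc153, Tmem212, Dynlrb2 and Rsph1 together and under 2% from Scgb1a1. A secretory cell had at least 5% from Scgb1a1 and under 0.05% from the 4 ciliated genes, and a basal cell had at least 0.2% from Krt5, Krt14, Krt15 and Aqp3 together and under 2% from Scgb1a1. These gates took 8725 cells of libraries 3 and 4, out of 21667 barcodes in all 4 libraries.

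The study profiled tracheal cells of mice on the 129S6/SvEvTac background at 5 to 8 months of age, in 4 genotypes: wild-type, bgh (a mutation in Spef2), Cfap54gt/gt (a gene-trapped allele of Cfap54) and nm1054 (lacking Cfap221). Cfap221, Cfap54 and Spef2 encode proteins of the central pair apparatus of motile cilia, and mice of the 3 mutant lines are models of primary ciliary dyskinesia. A genotype gave a single pool of 6 tracheas (5 for bgh). Pronase released the cells, a plating step took out fibroblasts, a column took out dead cells, and 8500 cells went onto the chip for 3' droplet sequencing. The deposited barcodes end in a library number, and no source used here ties a number to a genotype. Libraries are therefore called by number, and no value below is a mutant against wild-type comparison. With 1 library a side there was no replicate and no test: differences are between these 2 libraries, and genotype, animals, dissociation and library preparation cannot be told apart.

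In the airway, ciliated cells carry the beating cilia that move mucus, secretory (club) cells release secretoglobins and defence proteins and metabolise inhaled compounds, and basal cells are the stem cells that lie on the basement membrane and rebuild the epithelium after injury. The motile cilium is built on an axoneme of microtubule doublets around a central pair, with dynein arms and radial spokes that drive and shape the beat.

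Filtered cells, with at least 300 genes detected and at most 20% of UMIs from mitochondrial transcripts, numbered 7156 in library 3 and 5440 in library 4. Ciliated cells were 16.3% of library 3 (1165 cells, exact 95% interval 15.4 to 17.2) and 19.6% of library 4 (1068 cells, 18.6 to 20.7). Secretory cells were 29.99% (2146 cells, 28.9 to 31.1) and 28.3% (1541 cells, 27.1 to 29.5). Basal cells were 19.8% (1416 cells, 18.9 to 20.7) and 25.7% (1397 cells, 24.5 to 26.9), and 33.99% of library 3 and 26.5% of library 4 passed no gate. Basal and ciliated shares were lower in library 3 beyond counting error. With stricter gates the ciliated shares were 9.01% (8.36 to 9.70) and 10.0% (9.22 to 10.8), whose intervals overlap. Plating, dead-cell removal and the gates can all set these shares, and their part was not tested. Library 3 was the shallower in every gate: the median was 2043 against 2299 UMIs per ciliated cell, 8869.5 against 11385 per secretory cell and 3215 against 4568 per basal cell. No doublet caller was run. Each library had 3 to 5 cells that passed more than 1 gate, and 19 barcode sequences occurred in both libraries (23 gated cells). The gates cut through a continuum: in the basal gate of library 3, 244 cells lay within 25% above the cut and 246 within 25% below it, and in library 4 117 and 126.

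The gates fix much of how the classes differ, so marker levels are given as a description only, in CPM (a gene's summed UMIs in the gate, scaled to the total UMIs of that gate). The 8 ciliated markers that no gate used summed to 9137 CPM in library 3 and 9804 in library 4 in the ciliated gate, and to 703 and 739 CPM in the secretory gate. Secretory genes were present in the ciliated gate, where their list summed to 19484 and 28467 CPM in libraries 3 and 4. Without Reg3g, the other 9 markers summed to 13186 CPM in library 3 and 9999.8 CPM in library 4. Bpifa1 and Scgb3a1 were among those higher in library 3, by ratios that shrank or turned under stricter gates. Macrophage markers in the ciliated gate summed to 1854 and 1122 CPM, of which Lyz2, which airway secretory cells also make, gave 1712 and 972.

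A gene was called past a fold when it had at least 100 UMIs over the 2 libraries, differed by at least that fold in CPM, and had exact 95% Poisson intervals that did not overlap. Those intervals cover counting error only. Past 2-fold, the ciliated gate had 64 genes higher in library 3 (0.919% of 6963) and 56 lower (0.804%). The secretory gate had 100 higher (1.09% of 9166) and 69 lower (0.753%), and the basal gate had 48 higher (0.62% of 7743) and 60 lower (0.775%). Past 1.5-fold the shares were 4.45% higher and 3.06% lower in the ciliated gate, 3.45% and 4.37% in the secretory gate, and 2.29% and 4.51% in the basal gate. Counts for each gene list below are to be read beside these all-gene shares. The bulk of genes differed little: the median log2 ratio of library 3 over library 4 was 0.06, -0.04 and -0.05 in the 3 gates.

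**Figure D1:**
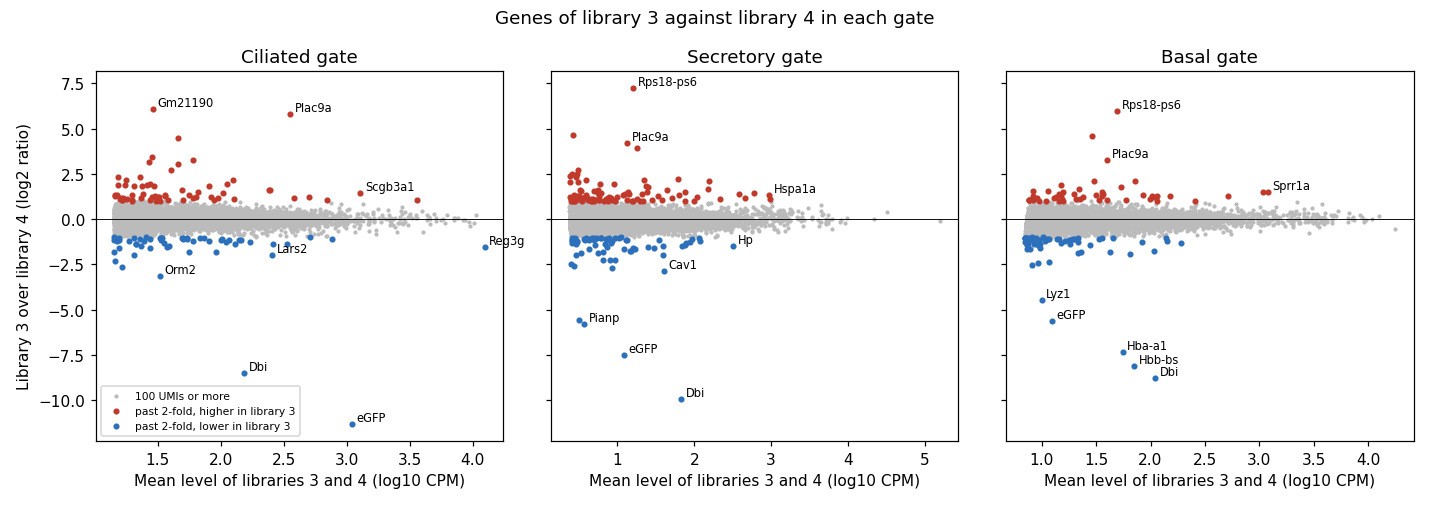
Log2 ratio of library 3 over library 4 (y axis) against the mean level of both libraries in log10 CPM (x axis) for each gene with at least 100 UMIs, 1 panel per gate; red and blue points are past 2-fold, higher and lower in library 3. Most genes lie near 0. Genes with 0 UMIs in library 3 (set to 3 UMIs), such as eGFP and Dbi, lie far below it, and in the basal gate Hbb-bs and Hba-a1, whose UMIs came nearly all from 1 cell, lie between Dbi and eGFP.

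The transcripts that differed most were absent from library 3. The feature eGFP, by its name a green fluorescent protein sequence, had 0 UMIs in library 3 in the 3 gates. In the ciliated gate of library 4 it had 7775 UMIs, or 2198 CPM (95% interval 2149 to 2247), at least 2556-fold higher than the 3 UMIs used as a floor in library 3. In the secretory and basal gates of library 4 eGFP was far lower, at 24.3 and 24.9 CPM. It was found in 92.7% of ciliated cells, 9.99% of secretory cells and 5.94% of basal cells of library 4. With every cell thinned to 1000 UMIs, those eGFP shares were 82.5%, 1.31% and 1.95%. RNA free in the droplets can give UMIs in cells that do not express a gene. For comparison, the ciliated marker Fam183b, in 95.7% of ciliated cells of library 4, was in 7.20% of secretory and 3.58% of basal cells, at 9.99 and 14.5 CPM. The low eGFP shares of secretory and basal cells are not read as expression, and what part free RNA had in them was not tested. In library 1, eGFP was at 1810, 22.1 and 22.4 CPM in the ciliated, secretory and basal gates, within 1.5-fold of library 4, and in library 2 at 95.2, 126 and 233 CPM. No label used here names a fluorescent transgene.

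Dbi, which encodes an acyl-CoA binding protein (ENSMUSG00000026385), had 0 UMIs in library 3 in every gate. In library 4 Dbi was at 306 CPM in ciliated cells (interval 288 to 325), 135 in secretory cells (130 to 140) and 221 in basal cells (211 to 232). Those levels were at least 356-fold, 995-fold and 432-fold above the floor of 3 UMIs. In libraries 1 and 2 Dbi was at 371 and 398 CPM in ciliated cells, so library 3 alone lacked it.

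Dbi lies close to Cfap221 in the RefSeq gene order: over all filtered cells, Cfap221 had 120, 87, 0 and 101 UMIs in libraries 1 to 4, Tmem37 had 93, 191, 0 and 210, and 3110009E18Rik, on the far side of Dbi, had 138, 138, 0 and 102. Cfap221, Tmem37, Dbi and 3110009E18Rik, at 0 UMIs in library 3, lay side by side, with Sctr, at 0 in all 4 libraries, among them. Tmem177, next to Cfap221 on its other side, had 42, 56, 27 and 52 UMIs. On the far side Steap3 had 8, 13, 1 and 8 UMIs, too few to show where the stretch ends. C1ql2 and Marco beyond Steap3 had 0 in all 4 libraries.

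In ciliated cells, Cfap221 had 48, 34, 0 and 39 UMIs in libraries 1 to 4, which is 11.03 CPM (7.84 to 15.1) in library 4. Cfap54 was alike in libraries 3 and 4, at 122 and 120 CPM (426 and 423 UMIs), and had 472 UMIs in library 1 but 12 in library 2. Spef2 was at 246 and 242 CPM (860 and 855 UMIs) in libraries 3 and 4. These values are given as measured, and no genotype was read from them.

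Several transcripts were higher in library 3 in all 3 gates. Plac9a, a small secreted protein gene, was at 697 CPM in ciliated cells of library 3 (669 to 725) against 12.4 in library 4 (9.04 to 16.7), a 56.0-fold ratio. It was at 25.2 against 1.38 CPM in secretory cells and 72.0 against 7.38 CPM in basal cells. Its neighbour Tmem254a was also higher, at 366 against 120 CPM in ciliated cells, 47.2 against 19.4 in secretory cells and 50.5 against 20.5 in basal cells. Both genes have duplicated copies in the mouse, so their counts depend on how shared reads were assigned. Plac9a was found in 65.0% of ciliated cells of library 3 and 3.75% of library 4, and after thinning to 1000 UMIs in 45.8% and 2.02%.

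Slc15a2, a transporter of small peptides, was at 126 CPM against 35.6 in ciliated cells, 254 against 59.1 in secretory cells and 123 against 49.1 in basal cells. Tpm3-rs7, a tropomyosin-related sequence, was at 87.7 against 3.96 CPM, 34.1 against 2.20 CPM and 55.3 against 2.29 CPM in the same order. Gm8797 was at 205 against 45.5 CPM, 100.1 against 21.2 CPM and 118 against 27.2 CPM. Library 2 lay with library 3 for these 3 genes: in ciliated cells Slc15a2 was at 144 CPM, Tpm3-rs7 at 64.9 and Gm8797 at 315 in library 2, and at 31.9, 3.19 and 57.4 in library 1. Tpm3-rs7 and Gm8797 are related to other gene copies, so their counts depend on how reads shared between copies were assigned.

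Rps18-ps6, a processed copy of the ribosomal protein gene Rps18, was at 31.6 CPM in secretory cells of library 3 against 0.205 in library 4 (699 and 4 UMIs), and at 96.9 against 1.53 CPM in basal cells. Rps18 itself went the other way within 1.5-fold, at 1193 against 1388 CPM in secretory cells and 3024 against 4129 CPM in basal cells. Reads can be split between these near-identical copies, so the value for each copy is uncertain. The mitochondrial transcript mt-Nd3 was 2.28- to 2.42-fold higher in library 3 in the 3 gates, at 698 against 302 CPM in ciliated cells, while the median of the 13 mitochondrial messenger RNAs was -0.0011, -0.0025 and 0.11 on the log2 scale in the ciliated, secretory and basal gates.

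Others were lower in library 3 in every gate. Lars2, the mitochondrial leucyl-tRNA synthetase, was at 103 CPM in ciliated cells of library 3 against 405 in library 4, at 40.5 against 111 in secretory cells and at 27.3 against 102 in basal cells. Tomm22, a receptor of the outer mitochondrial membrane import complex, was at 72.2 against 187 CPM, 36.3 against 100.3 CPM and 49.98 against 166 CPM in the same order. Hebp2, a heme-binding protein gene, was 3.10- to 3.50-fold lower in the 3 gates. Cd59a, an inhibitor of complement, was at 16.1 against 62.6 CPM in secretory cells and 19.1 against 66.2 CPM in basal cells, with a smaller difference in ciliated cells (31.2 against 47.2 CPM).

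**Figure D2:**
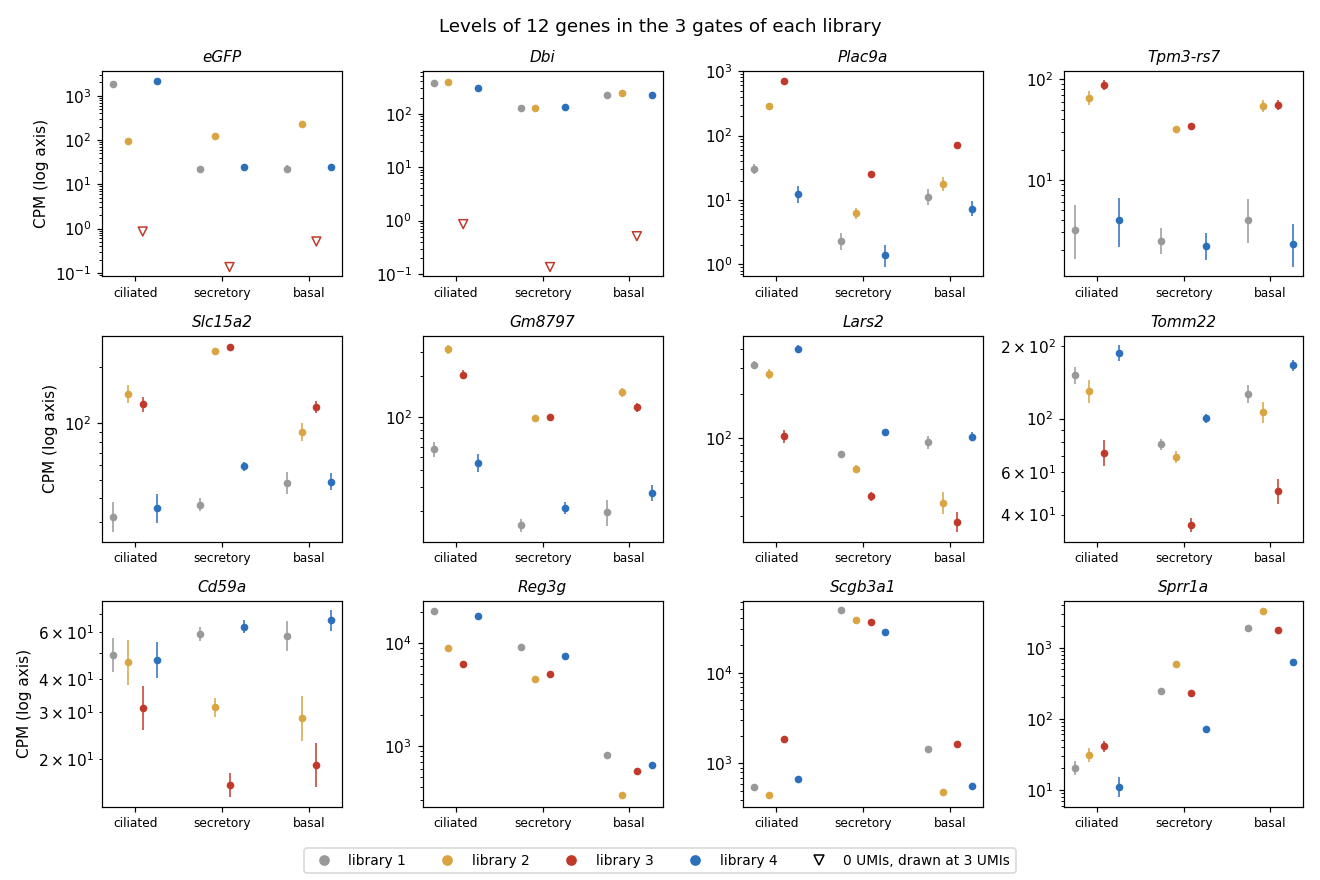
Level in CPM (log y axis, a separate range for each gene) of 12 genes in the ciliated, secretory and basal gates (x axis), with 1 point per library and bars for the exact 95% Poisson interval; open triangles mark 0 UMIs, drawn at 3 UMIs. Library 3 has no eGFP or Dbi in any gate, and libraries 2 and 3 lie together for Tpm3-rs7, Slc15a2 and Gm8797.

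The genes past 2-fold were chosen for a difference between libraries 3 and 4, and libraries 1 and 2 place them further. Libraries 3 and 4 were the 2 extremes for 63 of 120 genes in the ciliated gate, 74 of 169 in the secretory gate and 54 of 108 in the basal gate. Library 3 alone lay outside the range of the others for 38, 50 and 22, and library 4 alone for 15, 36 and 28. With the 4 levels split at their widest gap on the log scale, 51 of the 120 ciliated gate genes had library 3 apart from the other 3 libraries, 44 had libraries 2 and 3 apart from libraries 1 and 4, and 20 had library 4 apart. In the secretory gate the counts were 69, 60 and 32 of 169, and in the basal gate 42, 22 and 34 of 108. A share of the genes therefore sat at the same side in library 2 as in library 3. Genes with at least 100 UMIs in a gate were put in annotation order. Of those past 2-fold, some lay next to another that differed the same way. They numbered 13 of 118 placed genes in the ciliated gate, 22 of 166 in the secretory gate and 8 of 104 in the basal gate. Genes under the minimum were skipped, so such genes need not be direct neighbours in the annotation. No such share was taken over all placed genes, so these counts are not read as grouping by position. The neighbouring genes included Ifi202b, Ifi203 and Mndal, a cluster of interferon-inducible genes of 1 family. In secretory cells these were at 557 against 212 CPM, 36.4 against 10.3 CPM and 16.9 against 6.66 CPM.

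Cfap221 apart, most axonemal genes were close in ciliated cells of the 2 libraries. Of 18 central pair genes, 16 had enough UMIs, a minimum that left out Cfap221 (0 and 39 UMIs). Of those 16, 0 were higher and 1 was lower past 1.5-fold, and the list's median log2 ratio was -0.01 against 0.06 over all genes. The lower gene was Cfap47, a central pair protein, at 37.5 CPM in library 3 and 60.5 CPM in library 4. Of 16 radial spoke genes, 1 was higher (Rsph14, 50.2 against 32.2 CPM) and 0 were lower, with a median of -0.03. The all-gene shares past 1.5-fold in this gate were 4.45% higher and 3.06% lower. So 1 of 16 is not read as a result about either list. Outer dynein arm genes (12), inner dynein arm and nexin link genes (19), dynein preassembly genes (10), intraflagellar transport genes (21) and microtubule inner protein genes (15) had 0 past 1.5-fold in either direction. Their medians lay between -0.08 and 0.08.

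The list of immediate early genes, which cells switch on within minutes of a stimulus such as tissue dissociation, was lower in ciliated cells of library 3. Of its 21 members with enough UMIs, 10 were past 1.5-fold lower and 0 higher, with a median of -0.48. The all-gene shares there were 3.06% lower and 4.45% higher. Egr2, a zinc finger transcription factor, was at 20.3 CPM in library 3 (15.9 to 25.7) and 50.3 in library 4 (43.2 to 58.3). Ier2 was at 491 against 1042 CPM, and the AP-1 subunits Fosb, Jun and Fos were at 341 against 683 CPM, 3017 against 4998 CPM and 1346 against 2029 CPM. Egr1, Egr3, Atf3, Nr4a1 and Btg2 were the other members past 1.5-fold, with log2 ratios of -0.93, -1.03, -0.70, -0.89 and -0.95.

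In the other classes no member of the list was lower past 1.5-fold. In secretory cells 4 of 21 were higher (Fos 0.83, Dusp1 0.66, Egr1 0.64 and Nr4a1 0.61 on the log2 scale) and 0 lower, with a median of 0.15. In basal cells only Egr1 of 21 was past 1.5-fold, at 304 against 198 CPM, and the median was 0.09. The all-gene shares past 1.5-fold higher were 3.45% in secretory and 2.29% in basal cells. The 1 of 21 in basal cells is therefore not read as a result about the list. Whether the classes differ was not tested. Levels in library 1 and library 2 lay between those of libraries 3 and 4 for Ier2 in ciliated cells, at 801 and 771 CPM.

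Heat shock genes, which encode chaperones that refold damaged proteins, were higher in secretory cells of library 3. There 7 of 15 were past 1.5-fold higher and 0 lower, against 3.45% and 4.37% of all genes, and the median was 0.57. The inducible Hsp70 genes differed most: Hspa1a was at 1342 CPM in library 3 (1327 to 1358) and 534 in library 4 (524 to 544), and Hspa1b at 889 (877 to 902) and 321 (313 to 329). In libraries 1 and 2 Hspa1a was at 404 and 449 CPM and Hspa1b at 337 and 362 CPM, so library 3 stood above the other 3. Hsph1, a nucleotide exchange factor for Hsp70, was at 199 against 105 CPM, and the co-chaperones Dnajb4, Bag3 and Dnajb1 had log2 ratios of 0.78, 0.76 and 0.60. Hspb1, a small heat shock protein, had a log2 ratio of 0.67 in secretory cells.

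In basal cells 2 of 15 heat shock genes were higher past 1.5-fold (Hspa1b, 316 against 192 CPM, and Hsph1, 83.4 against 53.1 CPM), with a median of 0.25. Of all genes in basal cells, 2.29% were higher past 1.5-fold. In ciliated cells 0 of 15 were higher and Hspb1 was lower, at 187 against 480 CPM. The all-gene shares there were 4.45% higher and 3.06% lower, so 1 of 15 lower is not read as a result about the list. With stricter gates the log2 ratio of Hspb1 in the ciliated gate went from -1.36 to -0.34. Hspa1a in ciliated cells was at 323 against 481 CPM and Hspa1b at 390 against 350 CPM, both within 1.5-fold. In secretory cells Hspa1b was found in 74.3% of cells in library 3 and 58.2% in library 4, and in 37.7% and 17.2% after thinning to 1000 UMIs.

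**Figure D3:**
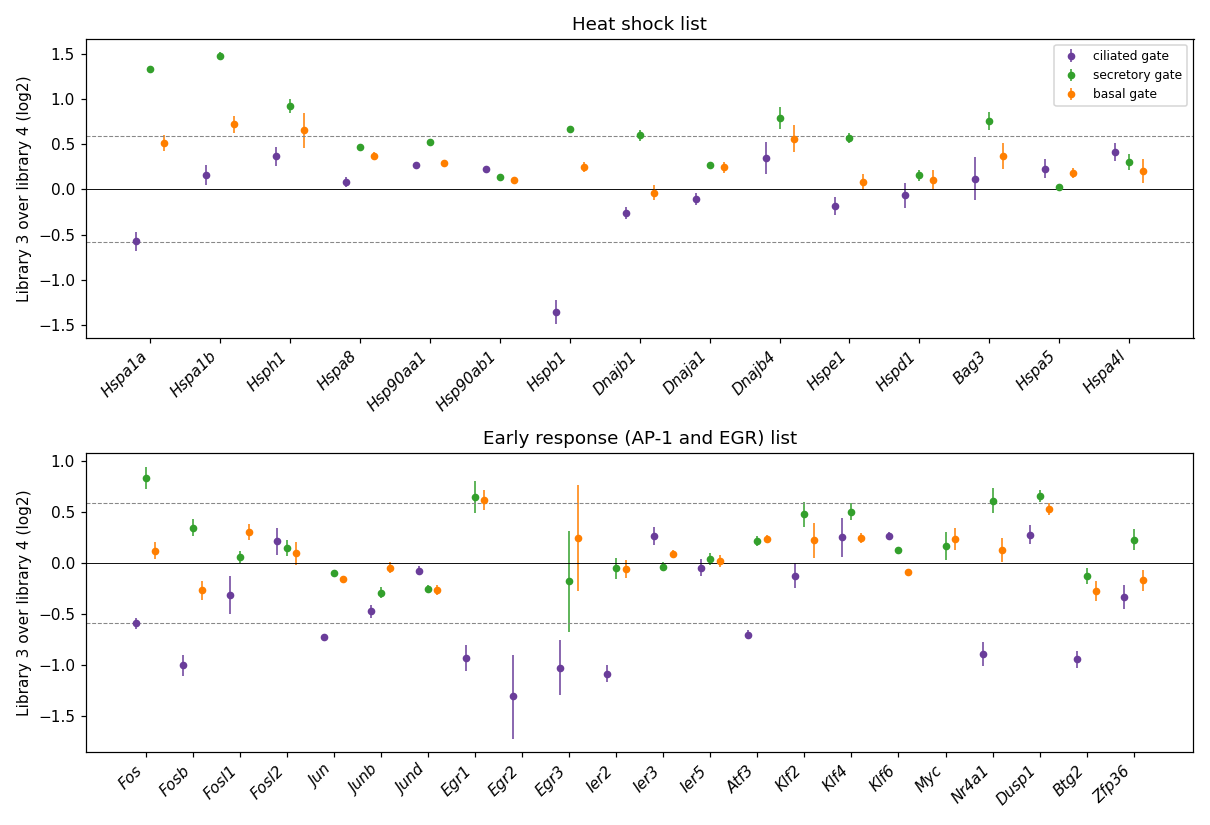
Log2 ratio of library 3 over library 4 (y axis) for members of the heat shock list (top) and the immediate early list (bottom) with at least 100 UMIs in a gate (x axis), coloured by gate, with 95% intervals from counting error; dashed lines mark 1.5-fold. Heat shock members of the secretory gate reach 1.47 (Hspa1b), and immediate early members of the ciliated gate reach -1.31 (Egr2).

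Promoters of Hspa1a and Hspa1b are shown because these near-identical copies differed most and a short-read count can misassign their reads, and that of Hspe1 because it holds the longer motif described after the sequences. The sequences are the 250 bases upstream of the start in RefSeq, from build GRCm38.p6 and not the GRCm39 build of the files. Both genes are on the minus strand, Hspa1a at chr17:34972157-34972406 and Hspa1b at chr17:34959239-34959488, and their upstream stretches share 247 of 250 bases. Hspe1, which encodes the mitochondrial Hsp10, is on the plus strand at chr1:55087898-55088147. Capitals mark the pair of heat shock units in Hspa1a and Hspa1b, and the overlapping 3-unit matches in Hspe1.
Hspa1a: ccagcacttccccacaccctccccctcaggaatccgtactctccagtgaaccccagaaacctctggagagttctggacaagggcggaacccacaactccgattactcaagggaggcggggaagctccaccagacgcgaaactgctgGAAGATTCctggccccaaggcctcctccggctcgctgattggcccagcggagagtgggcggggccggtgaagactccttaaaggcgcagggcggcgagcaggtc
Hspa1b: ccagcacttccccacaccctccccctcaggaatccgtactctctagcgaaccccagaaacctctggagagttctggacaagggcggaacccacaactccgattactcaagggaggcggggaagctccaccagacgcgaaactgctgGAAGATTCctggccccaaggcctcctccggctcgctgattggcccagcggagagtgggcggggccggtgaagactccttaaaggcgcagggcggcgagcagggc
Hspe1: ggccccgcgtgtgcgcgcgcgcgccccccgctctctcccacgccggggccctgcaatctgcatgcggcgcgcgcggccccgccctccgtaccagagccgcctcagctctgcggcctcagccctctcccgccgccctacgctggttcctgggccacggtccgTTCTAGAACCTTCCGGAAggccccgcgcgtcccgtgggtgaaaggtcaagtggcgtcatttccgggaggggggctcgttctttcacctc

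A heat shock element, the site bound by heat shock factor, was first searched as 3 alternating units 2 bases apart (GAANNTTCNNGAA or TTCNNGAANNTTC, each the reverse complement of the other, so both strands were searched). Of 12 heat shock genes with a promoter entry, 2 held it (Hspe1 and Hspd1, whose upstream stretches overlap on opposite strands), against 0.514% of all 27025 genes in the table. Neither Hspa1a nor Hspa1b held it. After that result was seen, a looser motif of 1 pair of units (GAANNTTC or TTCNNGAA, each its own reverse complement and part of the longer motif) was tried, and 8 of 12 held it, against 14.5% of all genes. The CArG box, the site of serum response factor, was searched in the immediate early list and found in 2 of 17 genes with an entry (Egr2 and Zfp36), against 1.62% of all genes. The 2 genes with the longer heat shock motif were not those that differed most: in secretory cells Hspe1 was at 322 against 217 CPM and Hspd1 at 212 against 191 CPM, both within 1.5-fold.

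Among secreted defence genes, Reg3g, an antibacterial lectin, was at 6298 CPM in ciliated cells of library 3 (6215 to 6382) against 18467 in library 4 (18326 to 18609). In libraries 1 and 2 it was at 20657 and 9038 CPM. Reg3g differed less in the other classes, at 5082 against 7454 CPM in secretory cells and 573 against 667 CPM in basal cells. B2m, the light chain of class I antigen-presenting molecules, was also lower in ciliated cells, at 146 against 373 CPM, and at 111 against 163 CPM in secretory cells. The other 9 secretory markers of the ciliated gate, Reg3g left out, summed higher in library 3, as given above. Those 9 include the gate gene Scgb1a1, and Bpifa1 and Scgb3a1, with log2 ratios of 1.09 and 1.46. Both ratios shrank or turned under stricter gates, as given below, so the sum is not read as a trend of secretory genes. With the ciliated cut raised to 0.6%, the log2 ratio of Reg3g in the ciliated gate was -1.56.

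In secretory cells the acute phase and defence genes Hp (haptoglobin), Lcn2 (lipocalin 2) and Chil1 (a chitinase-like protein) were lower in library 3, at 168 against 476 CPM, 45.2 against 112 CPM and 3.21 against 15.2 CPM. Orm2, an acute phase orosomucoid, was at 6.59 against 58.5 CPM in ciliated cells, and its neighbour Orm1 at 36.7 against 84.2 CPM. Cav1 and Cav2, the caveolins of membrane caveolae, were lower in secretory cells, at 9.66 against 70.5 CPM and 15.0 against 45.2 CPM. Cav1 was also lower in basal cells, at 85.0 against 199 CPM, but not in ciliated cells, at 44.7 against 31.9 CPM.

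Of 20 secreted defence genes with enough UMIs in secretory cells, 1 was higher past 1.5-fold and 4 were lower. The higher gene was Lyz2, at 5653 against 3315 CPM. In ciliated cells 5 of 14 were higher and 4 lower, and in basal cells 1 of 14 was higher and 3 lower. The all-gene shares were 3.45%, 4.45% and 2.29% higher and 4.37%, 3.06% and 4.51% lower in secretory, ciliated and basal cells. The single higher genes of the secretory and basal gates are not read as a result about the list. Single cells carried part of the defence gene values: of 170 Lyz1 UMIs in ciliated cells of library 3, 156 came from 1 cell. Bpifa1, a secreted airway defence protein, was at 4936 against 2324 CPM in ciliated cells, but the log2 ratio of Bpifa1 in the ciliated gate went from 1.09 to -0.028 without the 5% of cells with the most UMIs. Scgb3a1, a secretoglobin, was at 1879 against 682 CPM in ciliated cells and 1622 against 565 CPM in basal cells. Under stricter gates the log2 ratio of Scgb3a1 in the ciliated gate went from 1.46 to 0.21, and that of Scgb3a1 in the basal gate from 1.52 to 0.44. In secretory cells it was within 1.5-fold, at 36310 against 27989 CPM.

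Of squamous and wound-associated genes in basal cells, 6 of 24 were higher past 1.5-fold in library 3 and 1 was lower, with a median of 0.09 over the list. The all-gene shares past 1.5-fold were 2.29%, 3.45% and 4.45% higher in basal, secretory and ciliated cells, and 4.51%, 4.37% and 3.06% lower. Sprr1a, a cornified envelope protein, was at 1783 CPM in library 3 (1749 to 1818) against 627 in library 4 (609 to 645) in basal cells, 228 against 72.5 in secretory cells and 40.7 against 11.03 in ciliated cells. The wound keratins Krt6a, Krt16 and Krt17 were at 336 against 190 CPM, 790 against 436 CPM and 3682 against 2378 CPM in basal cells. The lower gene was Plau, the urokinase plasminogen activator, at 21.5 against 45.8 CPM. In libraries 1 and 2 Sprr1a was at 1864 and 3294 CPM in basal cells, so library 4 was the lowest of the 4. In secretory cells 3 of 21 members were higher and 2 lower, and in ciliated cells 4 of 13 were higher and 2 lower. Krt16 and Krt17 were among the 4 in ciliated cells, at 31.8 against 8.76 CPM and 97.7 against 34.2 CPM, and there their log2 ratios turned to -1.09 and -0.72 under stricter gates.

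Mucin and goblet genes were split. In secretory cells 3 of 17 were higher past 1.5-fold and 3 lower: the gel-forming mucin Muc5ac was at 2.39 against 5.28 CPM and the trefoil factor Tff2 at 71.6 against 133 CPM, while the membrane mucin Muc20 was at 8.26 against 3.02 CPM. Muc5b, the main airway mucin, was within 1.5-fold, at 319 against 246 CPM. Agr2, a protein disulfide isomerase needed for mucin folding, was lower in ciliated cells, at 98.6 against 240 CPM, and basal cells, at 80.2 against 137 CPM. In ciliated cells 0 of 6 members were higher and 3 lower. Over all genes, 3.45% were higher past 1.5-fold and 4.37% lower in secretory cells, and 4.45% and 3.06% in ciliated cells.

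Antigen presentation genes that passed 1.5-fold were lower in library 3. Over all genes, 3.06%, 4.37% and 4.51% were lower past it in the ciliated, secretory and basal gates. In ciliated cells 2 of 11 class I genes were lower past 1.5-fold (B2m, given above, and H2-D1, at 462 against 777 CPM) and 0 higher. In secretory cells 1 of 16 was lower and 0 higher, and in basal cells 0 of 13 passed in either direction. The class I medians were -0.23, -0.26 and -0.12 in the ciliated, secretory and basal gates, against 0.06, -0.04 and -0.05 over all genes. The gene of the secretory gate was H2-Q7, a nonclassical class I gene, at 0.768 against 4.25 CPM (17 and 83 UMIs). Cd74, the class II invariant chain, was at 1.44 against 5.28 CPM. A single cell gave 16 of the 103 Cd74 UMIs of library 4, and dendritic cell markers, a list that holds Cd74, summed to 1.72 against 6.51 CPM there. Their part in the difference was not tested. Apobec3, a restriction factor against retroviruses, was at 2.30 against 14.7 CPM in secretory cells and 3.75 against 19.3 CPM in basal cells.

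Other genes differed in ciliated cells. Sftpc, known as the surfactant protein C of alveolar type II cells, was at 81.1 against 9.89 CPM, and the ribonucleases Ang and Rnase4, which lie side by side, were at 70.2 against 10.7 CPM and 178 against 45.5 CPM. Aqp5, a water channel, was lower in ciliated cells (72.5 against 161 CPM) and secretory cells (529 against 846 CPM). Hmox1, a heme oxygenase that responds to oxidative stress, was higher in secretory cells (711 against 444 CPM) and basal cells (445 against 244 CPM).

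Other basal cell genes that differed were Sox9, a transcription factor of progenitor cells, cartilage and glands, at 48.6 against 11.3 CPM, and Ccnd2 (cyclin D2), at 347 against 171 CPM. Of the submucosal gland markers, which include Sox9 and the gate gene Krt14, Ltf was at 670 against 868 CPM, and the other 6 that no gate used summed to 15.4 against 35.9 CPM in basal cells. Those 6 include Lyz1, most of whose UMIs in basal cells of library 4 came from 1 cell, as given below, so their difference is not read as a trend. The defining chondrocyte markers other than Sox9 summed to 0.682 against 0.509 CPM. Tpm2, a contractile tropomyosin, was lower, at 109 against 270 CPM. Hbb-bs and Hba-a1, the globin genes, were past 2-fold lower in library 3 in basal cells, but 1112 of 1113 and 862 of 867 UMIs of library 4 came from 1 cell. Red blood cell markers summed to 0.853 and 266 CPM in that gate.

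Of the xenobiotic enzymes, Cyp2b10, a cytochrome P450 that responds to the receptor CAR, was higher in library 3 in each class, at 242 against 135 CPM in ciliated cells, 114 against 39.7 in secretory cells and 83.4 against 24.0 in basal cells. Aox3, an aldehyde oxidase, was lower, at 20.9 against 46.4 CPM, 125 against 204 CPM and 54.4 against 90.6 CPM. The list as a whole was split: 2 of 16 were higher and 2 lower in ciliated cells, 1 of 22 higher and 2 lower in secretory cells, and 1 of 19 higher and 2 lower in basal cells. The all-gene shares past 1.5-fold were 4.45%, 3.45% and 2.29% higher and 3.06%, 4.37% and 4.51% lower in the same order.

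Cholesterol and fatty acid synthesis genes were higher where they differed. In ciliated cells 4 of 18 were past 1.5-fold higher and 0 lower, with a median of 0.39. They included the desaturase gene Scd2 (26.1 against 14.4 CPM), the elongase gene Elovl5 (68.2 against 42.4 CPM) and the squalene synthase gene Fdft1 (57.6 against 37.0 CPM). When cells were thinned to 1000 UMIs, the log2 ratio of Scd2 in the ciliated gate went from 0.86 to -0.078. In secretory cells 4 of 20 were higher and 0 lower, led by the regulator Srebf1 at 12.9 against 6.76 CPM, and in basal cells 1 of 20 was higher and 0 lower. The all-gene shares past 1.5-fold higher were 4.45%, 3.45% and 2.29% in ciliated, secretory and basal cells.

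Interferon-inducible genes were higher where they passed 1.5-fold: 2 of 17 in ciliated cells, 3 of 21 in secretory cells and 4 of 14 in basal cells, with 0 lower in each. Ifi27l2a was in all 3 sets, at 23.2 against 10.7 CPM, 153 against 64.8 CPM and 155 against 76.3 CPM. Over all genes, 4.45%, 3.45% and 2.29% were higher past 1.5-fold in the ciliated, secretory and basal gates, and 3.06%, 4.37% and 4.51% were lower. The list's medians were 0.08, -0.20 and 0.03 in the ciliated, secretory and basal gates, against 0.06, -0.04 and -0.05 over all genes. Of chemokines and cytokines, Cxcl2, a neutrophil attractant, was higher in secretory cells (24.4 against 11.3 CPM) and basal cells (53.9 against 25.7 CPM), while Cxcl17 and Cxcl1 were lower in basal cells, at 90.8 against 185 CPM and 48.8 against 91.5 CPM.

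**Figure D4:**
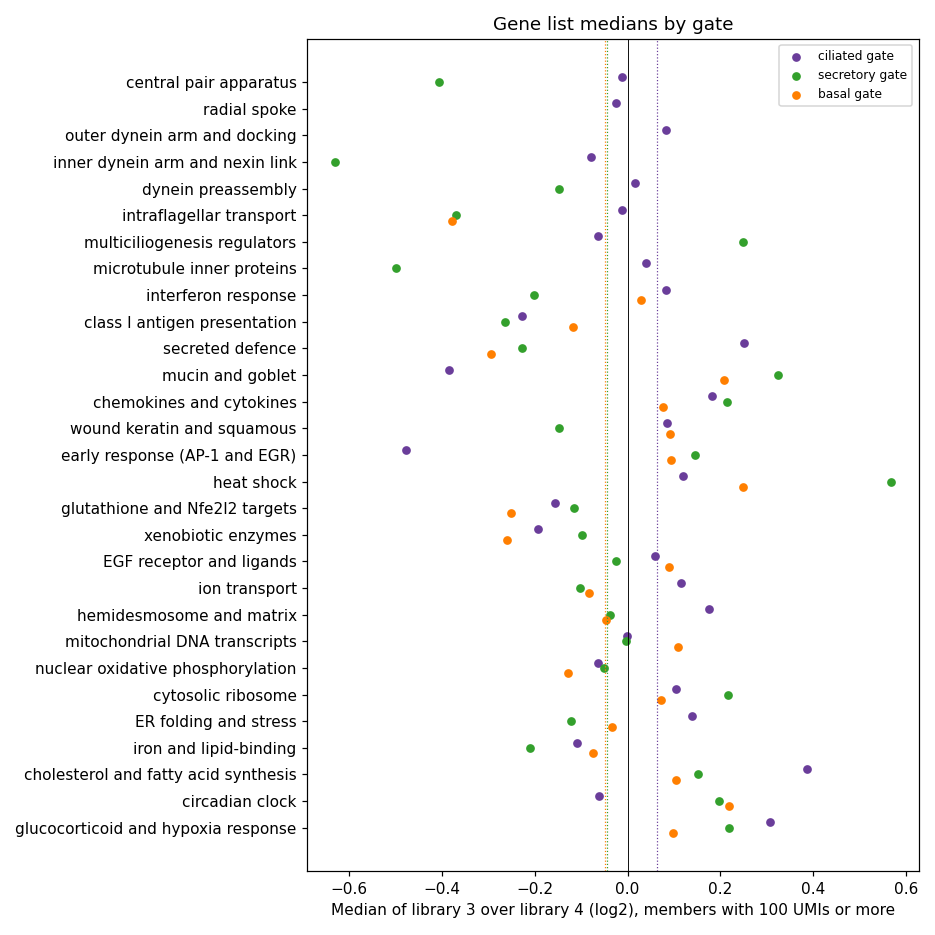
Median log2 ratio of library 3 over library 4 (x axis) for gene lists (y axis) with 5 or more members of at least 100 UMIs in a gate, coloured by gate; dotted lines mark the median of all genes in each gate. The heat shock list of the secretory gate (0.57) and the immediate early list of the ciliated gate (-0.48) lie away from those lines.

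The 40 nuclear genes of oxidative phosphorylation had 0 past 1.5-fold in any gate, with medians of -0.06, -0.05 and -0.13. Of 46 cytosolic ribosomal protein genes, 1, 5 and 1 were higher past 1.5-fold in the ciliated, secretory and basal gates and 0 were lower, with medians of 0.10, 0.22 and 0.07. Over all genes, 4.45%, 3.45% and 2.29% were higher past 1.5-fold in the same order, so 1 of 46 is not read as a result about these genes. In secretory cells the 46 genes summed to 57564 CPM in library 3 and 49516 CPM in library 4. Rpl26 was among them in each gate, at 941 against 450 CPM, 1327 against 615 CPM and 2904 against 1512 CPM.

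Traces of rarer cells also differed in some gates. Neuroendocrine markers summed to 53.3 CPM in the ciliated gate of library 3 and 7.07 in library 4, with 8 of 8 markers detected in library 3 and 6 in library 4. In libraries 1 and 2 they summed to 0.797 and 0 CPM there. How many cells held these UMIs was not counted. In the secretory gate neuroendocrine markers summed to 41.3 against 24.2 CPM and in the basal gate to 9.21 against 10.3 CPM. Tuft cell markers summed to 58.0 against 35.1 CPM in the secretory gate, 39.0 against 36.2 CPM in the ciliated gate and 17.7 against 28.5 CPM in the basal gate. T cell, dendritic cell, neutrophil and endothelial markers each summed to under 10 CPM in every gate of both libraries.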

How the data were processed

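The deposited matrix held raw UMI counts per gene and barcode for 4 libraries, written by Cell Ranger 6.0.1 per the file headers. The mouse build was GRCm39 per the submitters' processing notes. The sources used here do not name the annotation release. The members and gene lists were chosen with earlier results of these data known. Cells needed 300 genes and at most 20% mitochondrial UMIs, which removed 1308 barcodes. UMIs were summed per library and gate and scaled to CPM. Values under 3 UMIs were set to 3 for ratios, and the 9 gate genes were left out of calls. Intervals were exact Poisson or Clopper-Pearson at 95%. PCR duplicates are collapsed by the UMI, so intervals cover counting error only.

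Named genes were, per gate, the 12 past 2-fold with the largest log2 ratio in each direction, the 6 past 2-fold with the highest CPM, up to 4 members of each of 33 gene lists with at least 100 UMIs and the largest absolute log2 ratio, the 3 mutated genes and the genes next to Cfap221. Atf3, Jun, Bag3, Dnajb1, Hspd1, Hspe1, Zfp36, Cav2, Orm1, Ifi203, Mndal, Slc15a2, Tmem254a, Tomm22, and values of a named gene in a gate where the rule did not name it, were chosen after their values were seen. Symbols Ddit3 and Nrg1 each stand for 2 features. Promoters came from RefSeq (GRCm38.p6), and gene order from RefSeq was used only for neighbours. The fold rule was tried on simulated counts with Poisson error only, so without differences between cells or between libraries beyond the folds put in. Python 3.11.15, numpy 2.4.6, scipy 1.17.1, pandas 2.3.3 and matplotlib 3.10.9 were used, with edgeR 4.0.16 in R 4.3.3 for scaling factors only. Library totals were 53491773 UMIs in library 3 and 47459846 in library 4. Some named genes are not reported here.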

Additional observations from a re-analysis of the deposited data

Results flagged for a closer look

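Lyz1, a lysozyme gene, went opposite ways in 2 gates: its log2 ratio of library 3 over library 4 was 3.18 in ciliated cells and -4.48 in basal cells. Of its UMIs, 156 of 170 in ciliated cells of library 3 and 140 of 150 in basal cells of library 4 came from 1 cell each. Without those cells the log2 ratios of Lyz1 were -0.34 and -0.90. Pdlim3, which encodes a cytoskeletal PDZ and LIM domain protein, was lower in ciliated cells of library 3 (-1.10) and higher in secretory cells (1.03). Without the cell with most of its UMIs in each library, Pdlim3 was at -1.08 and 1.05. The difference between gates was not tested for either gene, since each side was 1 library.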

How the results depend on the processing

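Counts of genes past 2-fold (120, 169 and 108 in the ciliated, secretory and basal gates) were within 1.5 times the reported count under the other settings, with these exceptions. A minimum of 30 UMIs gave 254, 304 and 210, and no minimum gave 313, 360 and 253. A 1.5-fold threshold gave 523, 717 and 526. Thinning cells to 1000 UMIs gave 49, 43 and 39, with fewer genes at the minimum (2988, 2979 and 3413). Stricter gates gave 59 in the ciliated gate, where 32 of the 120 genes remained past 2-fold. There, too, fewer genes had the minimum (3399 against 6963), and genes under it could not be called. Similar counts held different genes: with stricter gates the secretory gate gave 144, of which 108 were among the 169, and the basal gate 86, of which 47 were among the 108. Leaving out each gene's top cell, chosen after seeing the data, gave 115, 169 and 98. By mean CPM over cells, 32.8% of basal genes past 2-fold were higher in library 3, against 44.4% as reported.

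Under stricter gates the shares in libraries 3 and 4 were 9.01% and 10.0% (ciliated), 22.8% and 21.0% (secretory) and 9.85% and 16.7% (basal). Gated after thinning, they were 14.7% and 17.3%, 32.9% and 31.0%, and 22.1% and 27.5%.

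Some genes changed sign, with log2 ratios as follows. Under stricter gates, in ciliated cells, Bpifa1 was -0.19, Krt16 -1.09, Krt17 -0.72, Lyz1 -0.28 and Sftpa1 -1.09, and in basal cells Hba-a1 was 0.078, Hbb-bs 0.81 and Sftpa1 -0.54. Without the 5% of cells with the most UMIs, Bpifa1 was -0.028, Lyz1 -0.57 and Sftpa1 -0.52 in ciliated cells. Thinned, Scd2 was -0.078 and Sftpa1 -0.18 in ciliated cells, and by mean CPM over cells Sftpa1 was -0.070. Without the top cell, Lyz1 was -0.34 in ciliated cells and Hbb-bs 0.42 in basal cells. The cause was not tested, except that 1 cell carried most Lyz1, Hbb-bs and Hba-a1 UMIs.

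No paired analysis was possible because each side was 1 library with no replicate number. Library 3 was shallower, and low genes were limited by counting error. The search for a heat shock motif was widened after its first result was seen, and both results are given.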
